A study of Etheostoma caeruleum with 31 samples.

Results

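Testis RNA of male rainbow darters in midwinter was compared with that of males in late summer. The comparison took the 6 arrays labelled developing (January 2012) and the 6 labelled post-spawning (August 2011), 12 of the 31 arrays of the study, which otherwise holds 19 arrays of spawning, recrudescence and pre-spawning testis. The rainbow darter (Etheostoma caeruleum) is a small freshwater fish, and all fish were adult wild males caught by electrofishing in the Grand River in Ontario, at a place the labels call clean. The labels name no treatment and separate the groups by the time of collection. Each stage comes from 1 month of 1 year, and reproductive state therefore cannot be told apart from season, water temperature or collection. Total RNA of the whole testis was labelled with Cy3, and each sample was put on its own 1-colour oligonucleotide array. The labels call the arrays of a stage biological replicates.

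In fish that breed once a year, the testis regresses after the spawning season, when sperm production has stopped, the remaining sperm are cleared and spermatogonia, the stem and early germ cells, persist. It is then rebuilt, as spermatogonia multiply, enter meiosis and mature through spermatids into sperm, supported by Sertoli cells and the androgen-producing Leydig cells. RNA of the whole organ reflects both which cells it holds and what each cell expresses. A lower signal from fewer cells of a type and one from less RNA per cell cannot be told apart here. The files used here pair no probe with a gene, so that neither the tissue label nor a cell type could be checked against marker genes, and probes are described by their values and their course over the year.

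A 75th percentile intensity of 4026 ± 658 was found on the developing and of 3798 ± 724 on the post-spawning arrays (SD, n = 6 each). A developing array had 86.6% to 95.2% of its probes well above background, and a post-spawning array 87% to 95.8%. Signals below are log2 intensities scaled to the 75th percentile of their own array, and a difference is always developing minus post-spawning. The number of arrays limits the precision of every value.

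Of 8638 probes tested, 5453 (63.1%) passed an adjusted p of 0.05 in limma, 2303 of them higher in developing testis (26.7%) and 3150 lower (36.5%). The other 3185 did not pass. With arrays scaled to spike-in probes, 43.5% of the probes were called. The median difference was 0.97 among the higher probes and -0.97 among the lower ones, close to 2-fold in each direction, while the median standard error of a difference over all probes was 0.17. The 6 developing and the 6 post-spawning arrays did not overlap at all for 3510 probes (40.6%), of which 1432 were higher and 2078 lower in developing testis.

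**Figure D1:**
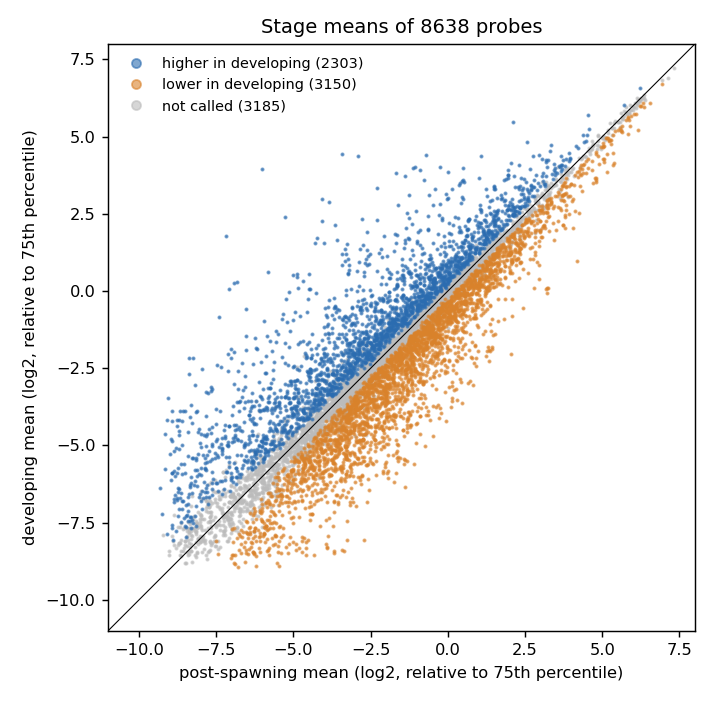
Mean log2 signal of each of the 8638 probes in developing testis (vertical) against post-spawning testis (horizontal), both scaled to the 75th percentile of the array, with the line of equality. The 2303 probes called higher in developing lie above the line and reach farther from it than the 3150 called lower.

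Moderate differences were more often downward, and large ones more often upward. At least 2-fold differences were found for 1113 higher probes (12.9% of those tested) and 1522 lower probes (17.6%). At 4-fold the directions were nearly even, with 500 higher and 492 lower. At 8-fold there were 228 higher and 159 lower probes, at 16-fold 110 and 27, and at 32-fold 44 and 2. A difference of 64-fold or more was reached by 15 higher probes and by no lower one. The 100 probes with the largest differences, 89 of them higher in developing testis, held 18.9% of the summed squared difference over all probes.

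**Figure D2:**
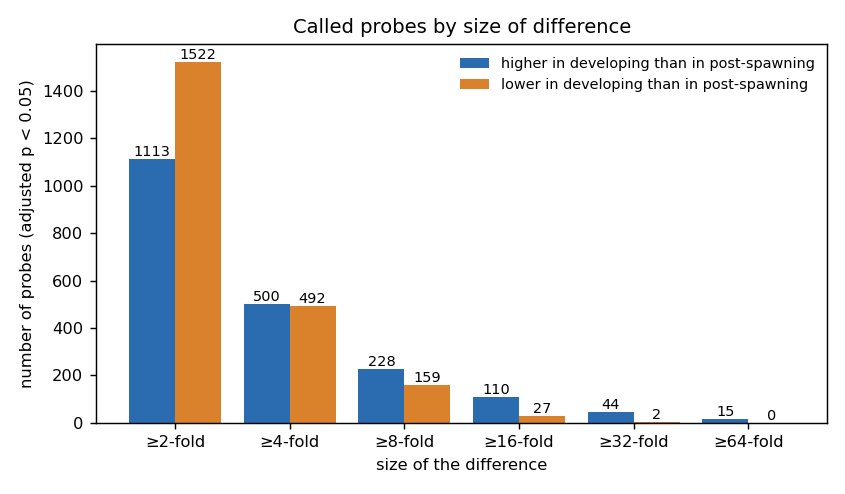
Number of called probes (adjusted p under 0.05) whose difference reached each fold size, higher in developing (blue) and lower in developing (orange). Lower probes were more numerous at 2-fold (1522 against 1113) and higher probes at 8-fold and beyond (228 against 159 at 8-fold).

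The balance of directions over all called probes depended on the scaling. With arrays scaled to their 75th percentile, the median difference over all probes was -0.13, and 42.2% of the called probes were higher in developing testis. With arrays centred on their median the overall shift was -0.02 and the called probes were split into 2619 higher and 2724 lower (49% higher). Scaling to the spike-in probes, RNAs of known amount added before labelling, gave a shift of 0.16, 2288 higher and 1469 lower probes (60.9% higher). The mean log2 brightness relative to the spike-ins was -0.79 on developing and -1.08 on post-spawning arrays. Developing replicate 3 stood at 0.12, and the other developing arrays at -0.84 or lower. The part of this array in the results of spike-in scaling was not tested. At 8-fold the higher probes outnumbered the lower ones under the 4 scalings, the normexp background correction and the authors' table, but by amounts that differed, with 228 against 159 in the 75th percentile scaling, 127 against 49 with normexp and 275 against 96 with spike-in scaling. Other fold sizes were not compared across scalings.

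The direction also varied with the brightness of a probe. Probes were put into 4 groups of nearly equal size by their mean signal over all 31 arrays. In the dimmest group 33.1% of the called probes were higher in developing testis, and in the brightest group 54.4% were. The groups between them gave 35% and 44.3%. This order held with median centring (38.2% to 63%), quantile normalisation (38.4% to 52.9%), spike-in scaling (45.4% to 80.6%) and in the authors' table (38.6% to 53.9%). Most of the 31 arrays behind the mean signal lie near the developing end. A probe low only in August therefore tends to fall in a brighter group than one high only in August. The grouping is thus not independent of direction, and its part in this order was not tested. The share of probes called was 56.2% in the dimmest and 67.9% in the brightest group. The 8-fold differences were split accordingly, with 62 higher and 98 lower probes in the dimmest group and 87 higher and 5 lower in the brightest. The median absolute difference over all probes of a group was 0.92 in the dimmest and 0.45 in the brightest group. Dim probes lie closer to the background, which can change the size of their differences. The part of the background in these values was not tested.

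Single probes are named here from those called and well above background on all 12 arrays, and some of the other called probes had larger mean differences. Within that set the largest rise belonged to probe GT_EA516_un_as_sp_15814. Its log2 signal ran from 1.43 to 5.32 with a median of 4.52 on the developing arrays, against -6.42 to -4.71 with a median of -6.23 on the post-spawning arrays. All 6 winter fish were thus far above all 6 summer fish, while the winter fish also differed widely from each other. The difference of 9.97 ± 1.02 (SE) corresponds to 1005-fold, with an adjusted p of 1.45e-09 in limma, and it lay between 7.72 and 10.8 within each of the 4 slides. In the other months the probe varied between single fish, with -2.51 to 4.54 in spawning, -0.38 to 4.73 in recrudescence and -0.63 to 4.57 in pre-spawning testis. None of these 19 arrays reached down to the summer values, and their spread within a stage (SD of 1.79 to 2.45) was larger than that of the post-spawning arrays (0.65).

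Probe GT_EA516_an_as_xh_1291 had the next largest rise within that set. It ranged from 3.79 to 4.90 (median 4.41) on the developing arrays, against -5.93 to -1.02 (median -3.23) on the post-spawning arrays. Here the winter fish were close together and the summer fish were spread over nearly 5 log2 units, yet the groups remained more than 4 log2 units apart. The difference was 7.86 ± 0.55 (SE, adjusted p = 5.66e-13 in limma), or 233-fold, and 5.37 to 10.5 within slides. This SE rests on the pooled spread of the 5 stages, whereas the post-spawning arrays alone had an SD of 2.07 (n = 6). The signal in the other stages was 4.49 ± 0.35 in spawning (SD, n = 7), 5.31 ± 0.31 in recrudescence (n = 5) and 4.08 ± 0.59 in pre-spawning testis (n = 7). Spawning and pre-spawning were near the winter mean of 4.44, while all recrudescence arrays (4.95 to 5.68) lay above all winter arrays.

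The largest fall among probes detected on all 12 arrays was 22.5-fold, for probe GT_EA516_un_s_sp_36178. It measured -6.10 to -4.96 (median -5.58) on the developing arrays, against -1.74 to -0.24 (median -1.12) on the post-spawning arrays. The difference was -4.49 ± 0.25 (SE, adjusted p = 4.60e-15 in limma), and -4.96 to -3.50 within slides. Spawning (-5.19 ± 0.36), recrudescence (-5.01 ± 0.52) and pre-spawning testis (-6.16 ± 0.41) were all far below August, so that the probe was bright in summer and dim in each of the other 4 stages. Only 5 of the 7 pre-spawning arrays were well above background for this probe.

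Probe GT_EA516_an_as_sp_2373 showed the next largest fall within that set, and its summer values had the smallest SD of the 4 probes (0.17, n = 6). The developing arrays lay between -6.54 and -5.48 (median -6.30), against -2.02 to -1.53 (median -1.71) on the post-spawning arrays. No winter fish came within 3 log2 units of a summer fish. The difference was -4.43 ± 0.22 (SE, adjusted p = 8.07e-16 in limma) and kept between -4.89 and -4.19 within slides. Of the other stages, recrudescence was the nearest to August with -4.90 ± 0.45 (n = 5), and spawning (-5.50 ± 0.49, n = 7) and pre-spawning (-5.85 ± 0.38, n = 7) lay lower. For this probe 6 of the 7 pre-spawning arrays were well above background.

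**Figure D3:**
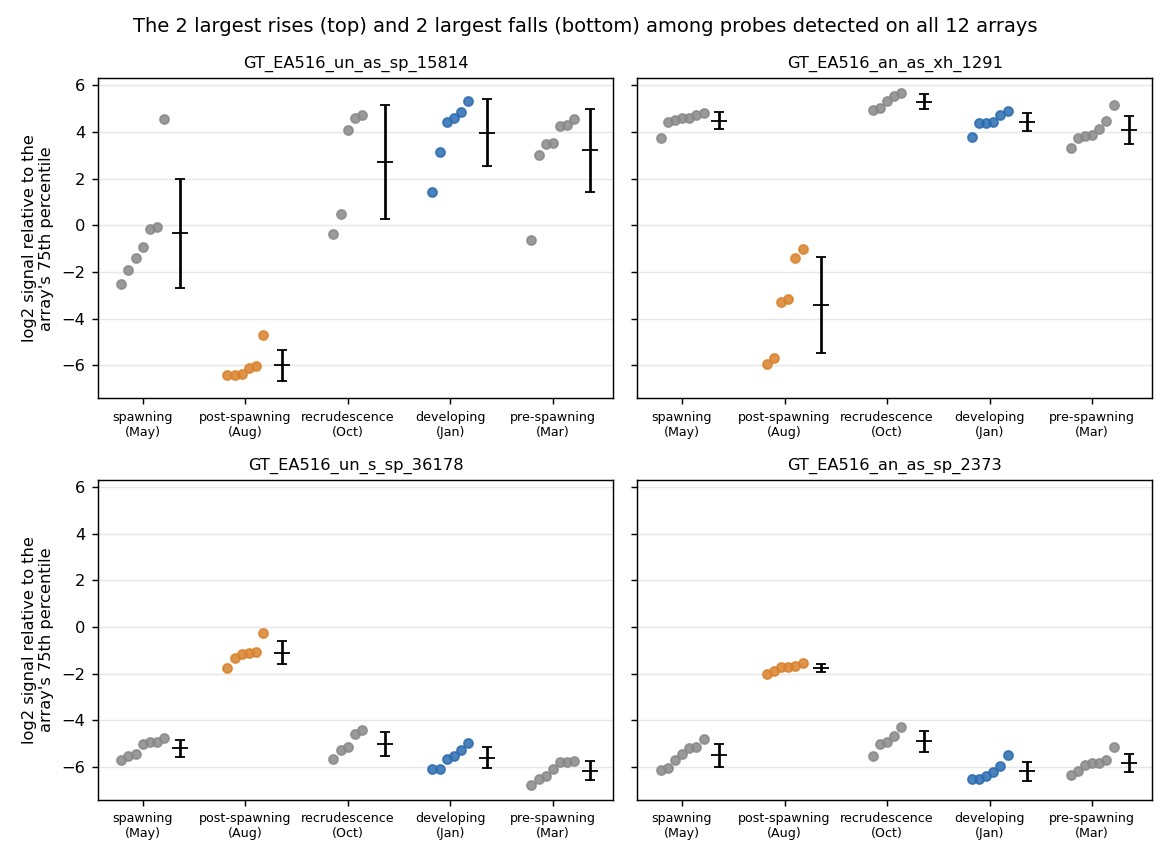
Log2 signal (scaled to the 75th percentile) of 4 probes on every array, by stage in order of collection, with the stage mean and SD beside the points. The developing arrays (blue) and the post-spawning arrays (orange) do not overlap for any of the 4 probes, and the other 3 stages (grey) lie nearer to developing in each panel except for some spawning fish of the first.

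A few transcripts crossed the detection limit between the stages. For 13 probes all developing arrays and no post-spawning array were well above background, with a median bound of 19.2-fold and a highest bound of 63.1-fold. For 15 probes the opposite held, with a median bound of 8.18-fold and a highest bound of 25.4-fold. For each bound the dim stage was set to the lowest signal that counts as well above background, or to the probe's own signal where that was higher. A probe counts here with a share of 0.5 of its spots, so that the lowest signal can include an undetected spot. These bounds can therefore be too high. These probes were chosen by the same 2 stages, so that no test of them is given. When all spots of a probe had to be well above background, the median bounds were lower, at least 8.57-fold (14 probes) and at least 4.49-fold (21 probes). The highest were then at least 27.9-fold and at least 18.3-fold. Of the 13 detected in January and not in August, 12 were detected on every recrudescence array and 10 each on every pre-spawning and every spawning array, and none was missing from all arrays of a stage. Of the 15 detected in August and not in January, none was well above background on all arrays of another stage, and 7 in recrudescence, 12 in pre-spawning and 8 in spawning testis were detected on no array.

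The direction of most called probes was the same in each single fish. With each of the 12 arrays left out in turn, 5252 to 5403 probes were called. Between 94.9% and 99% of the probes called without a given developing fish moved the same way in that fish against the post-spawning mean. For the post-spawning fish the shares were 97.4% to 98.9% against the developing mean. The mean of the opposite stage also entered the calls, so that these shares are not independent of them. No share over all probes tested stands beside them. Developing replicates 4 (94.9%) and 1 (95%) had the lowest shares, and developing replicate 5 had the highest (99%). Each slide held fish of both stages. When a slide was left out, 93.6% to 97.5% of the resulting calls had the same direction on the slide left out.

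The distances among winter fish were larger in value than those among summer fish, but not beyond the test. An array's root mean square distance from the mean of the other arrays of its stage averaged 0.59 ± 0.11 log2 units in developing and 0.49 ± 0.05 in post-spawning testis (SD, n = 6 each). The difference did not pass a two-sided exact permutation test over 5 whole-array measures (p = 0.0606, adjusted 0.152, smallest possible 0.00216). The 6 distances of a stage depend on each other, since each is taken from the other arrays, and the test does not allow for this. The highest distances were those of developing replicates 1 (0.77) and 3 (0.67). The standard deviation of a probe was larger in developing than in post-spawning testis for 60.2% of the probes. That share was 46.5% when developing replicates 1 and 3 were left out. These replicates were picked for their high distances, and no post-spawning array was left out. A lower developing spread therefore follows from the choice itself. The median standard deviation without these replicates was 0.245 in developing (4 arrays) and 0.259 in post-spawning testis (6 arrays), so that the numbers of arrays also differ. Without developing replicates 1 and 3, 5137 probes were called. The share of the summed signal held by the 100 brightest probes was 34.7% ± 1.62 in developing and 36.7% ± 1.36 in post-spawning testis (exact permutation p = 0.0411, adjusted 0.152). The other 3 measures, the 75th percentile, the share of probes above background and the brightness relative to the spike-ins, gave adjusted exact p of 0.516 to 0.734.

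The other 3 stages were set against the midpoint between developing and post-spawning at each probe. Their signals do not enter the difference between developing and post-spawning, although their arrays share in the estimate of the spread and in the filter on dim probes. With 6 arrays in each of the 2 stages, the midpoint between them is uncorrelated with their difference if both stages have the same spread. The standard deviation was larger in developing for 60.2% of the probes, so that this holds only in part. The mean of the spawning, recrudescence and pre-spawning stages was therefore tested against that midpoint with limma, and it differed from it for 6537 of 8638 probes (75.7%). Among the 5453 called probes it lay on the developing side of the midpoint for 4087 (74.9%) and on the post-spawning side for 507 (9.3%), and 859 (15.8%) did not pass. Over all probes tested, called or not, the shares were 61.6% and 14.1%. The first are called the August kind below, since the other stages sided with January, and the second the January kind. These names give a side only. For 62.6% of the called probes the mean of the other stages lay beyond the developing mean, so that January could differ from them too.

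The shares differed in value between the directions. The developing side held 1507 of 2303 higher probes (65.4%) and 2580 of 3150 lower probes (81.9%), while the post-spawning side held 357 (15.5%) and 150 (4.76%). The size of that gap depended on the scaling, since the developing side held 69.9% of the higher and 74.5% of the lower probes with median centring and 53.3% and 87.8% with spike-in scaling, and the gap was not tested. Most of the January kind, 357 of 507, were higher in winter. The January kind held 33 of the 228 probes called higher by 8-fold or more (14.5%) and 0 of the 159 called lower by as much. The first share was near the 14.1% of all probes tested that lay on the post-spawning side. In the 357 higher probes of the January kind the other stages differed from developing by a median of -0.97 and from post-spawning by -0.13, on the log2 scale. In its 150 lower probes they lay a median of 0.78 above developing and 0.09 above post-spawning. For the probes of the August kind the other stages lay a median of 1.62 above post-spawning testis (1507 higher probes) or 1.44 below it (-1.44, 2580 lower probes), and beyond developing by 0.46 and -0.34.

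Each of the other 3 stages gave a similar picture when tested alone. Taken singly, recrudescence differed from the midpoint for 65% of all probes tested, pre-spawning for 70.7% and spawning for 71.9%. The recrudescence mean, from October and so between the 2 stages in time, lay on the developing side for 67.9% and on the post-spawning side for 7.1% of the called probes, with 25% not passing. For pre-spawning testis the shares were 72.4% and 8.31%, and for spawning testis 69.7% and 9.9%. Over all probes tested, these shares were 54.1% and 11% for recrudescence, 58.4% and 12.3% for pre-spawning and 57.4% and 14.5% for spawning testis. On a scale on which the post-spawning mean of a probe is 0 and its developing mean is 1, the median position over the called probes was 1.12 for recrudescence, 1.20 for pre-spawning and 1.20 for spawning. The October mean was beyond the January mean for 59.1% of the called probes, between the 2 means for 34.2% and beyond the August mean for 6.73%. Such positions were computed for called probes only, so that no share over all probes tested stands beside them.

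**Figure D4:**
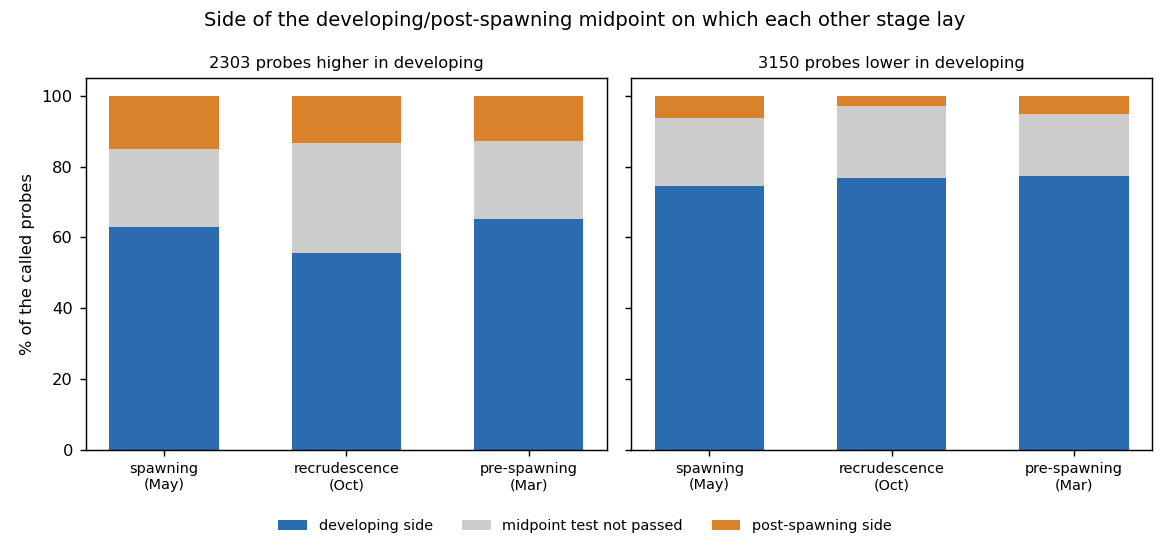
Share of the probes called higher (left) and lower (right) in developing testis for which the spawning, recrudescence or pre-spawning mean lay on the developing side of the midpoint between developing and post-spawning, on its post-spawning side, or did not pass the test against it. The developing side held 55.7% to 65.3% of the higher and 74.6% to 77.5% of the lower probes.

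Whole arrays were arranged in the same way. Each array was placed on the line that joins the post-spawning mean (0) and the developing mean (1) over 8561 probes measured on every array, with the array itself left out of the means. Such a position gives more weight to probes with large differences and leaves out any distance of an array off the line. It therefore does not show how alike whole profiles are. The developing fish lay between 0.87 and 1.06 and the post-spawning fish between -0.06 and 0.17. All 19 arrays of the other stages lay close to the developing end, with 0.975 to 1.101 in spawning, 0.95 to 1.05 in recrudescence and 0.98 to 1.13 in pre-spawning testis. None was placed between 0.17 and 0.87. Post-spawning replicate 2 was the summer fish nearest to the other months on this line, at 0.17, whereas the other 5 lay between -0.06 and 0.01. The correlation of the 2 stage means across probes was 0.90, and across probes single developing and post-spawning arrays correlated at 0.853 to 0.912, below the lowest value within developing (0.944) and within post-spawning (0.966). Probes are not independent replicates.

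**Figure D5:**
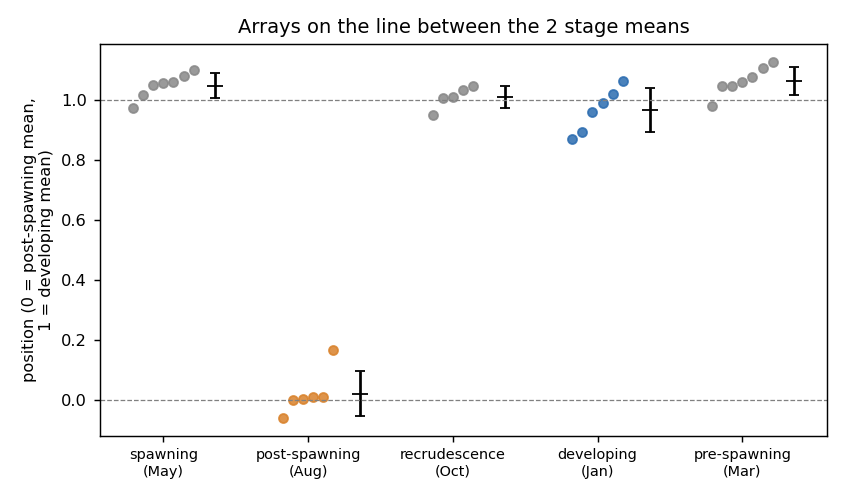
Position of every array on the line between the post-spawning mean (0) and the developing mean (1), by stage in order of collection, with the stage mean and SD beside the points. The 6 post-spawning arrays lie at or below 0.17, and the arrays of all other stages lie at or above 0.87.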

How the data were processed

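Per the labels' protocols, Trizol was used to extract total RNA, and Cy3 labelling followed the 1-colour protocol of Agilent. Per the file headers, the deposited intensity of each spot came from Agilent Feature Extraction 10.7.1.1, which subtracts the background within an array and leaves differences between arrays in place. The authors also deposited a log2 table of 15171 of the 15208 non-control spots. How it was normalised is not given in these sources. Its values had nearly the same distribution on every array (medians of 9.70 to 9.71), as quantile normalisation leaves them. The authors' table served as an alternative close to quantile normalisation (5520 against 5562 called probes). Its ranks within an array were those of the intensities.

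From the intensities, log2 values relative to each array's 75th percentile over non-control spots were computed, outlier-flagged spots (145 on the 12 arrays) were dropped, and the 1 to 3 spots of a probe were averaged. No spot was saturated. Of 9041 probes, 8638 were well above background (at least a share of 0.5 of the spots) on at least 5 of the 31 arrays and were tested. A probe that passed through the stage where it is bright had to differ. For 29 probes a value on 1 or more of the 12 arrays was missing and was left out.

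Stage means of all 31 arrays were fitted in limma (version 3.58.1, R 4.3.3) with lmFit and eBayes, and p-values were adjusted over all 8638 probes by the Benjamini-Hochberg method. On simulated data for this comparison with 200 of 8638 probes changed, the fit recovered 56.7% of 1.5-fold, 76.1% of 2-fold and 95.5% of 4-fold changes and made 5 false calls among 157. In the data 5453 probes were called. The cut-off on p loosens as more probes are called, so that these rates need not hold there. Probes named are the 2 largest rises and 2 largest falls among called probes well above background on all 12 arrays, whose direction held without any 1 of these arrays. The lists of marker genes prepared could not be used, as the files pair no probe with a gene. The stages, the rule and the tests were chosen with earlier results of these data known. Alternatives were another background correction (normexp, offset 50), other normalisations and filters, slide or replicate number as a block, leaving out arrays or slides, an intensity trend and array weights. Slide and scan coincide.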

Additional observations from a re-analysis of the deposited data

Results flagged for a closer look

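An array was singled out when the ratio of its gap to the nearest array over the range of its stage passed the 95% critical value of Dixon. Over 34 groups of arrays, 7 stood out, 3 of them in whole-array measures and 4 in the named probes. Chance singles out about 1 group in 20, and the named probes were chosen for their large differences, so that this rate does not apply to them.

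Post-spawning replicate 4 had 95.8% of its probes well above background, against at most 90.3% on the other post-spawning arrays. Post-spawning replicate 2 lay at 0.17 between the 2 stage means, with the next array at 0.01. It was also the highest post-spawning array for probe GT_EA516_un_as_sp_15814, at -4.71 against -6.03 for the next. Developing replicate 3 was brighter relative to the spike-in probes than the other developing arrays, at 0.12 against -0.84 on the log2 scale.

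In the other stages, probe GT_EA516_un_as_sp_15814 was high in spawning replicate 6 (4.54, next -0.07) and low in pre-spawning replicate 3 (-0.63, next 3.03). Probe GT_EA516_an_as_xh_1291 was low in spawning replicate 3 (3.75, next 4.42).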

How the results depend on the processing

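The count of 5453 called probes stayed within 1.5 times under all 31 alternatives, from 3757 with spike-in scaling, which is 43.5% of the probes tested and no longer a majority, to 5670 with array weights. It was 5340 with the 12 arrays alone, 5419 with slide as a fixed block, 4585 to 5184 without a slide, and 5252 to 5403 without a single array. The 2303 higher probes ranged from 1924 to 2619. The count of lower probes left that range in 1 alternative, spike-in scaling (1469 against 3150). That scaling also gave 2510 called probes with the other 3 stages on the developing side, against 4087, and 319 on the post-spawning side, against 507. Without slide 3 the post-spawning side held 305 probes. By its construction, spike-in scaling carries the overall brightness of an array into every value. The cause of the change without slide 3 was not tested. Without single arrays the 2 sides held 3897 to 4127 and 408 to 555 probes. Each of the 4 named probes kept its direction and its call under all 31 alternatives, but the sizes depended on the background correction. With normexp the log2 differences of the 2 rises were 8.92 and 7.39, in place of 9.97 and 7.86. Those of the 2 falls were -3.61 and -3.18, in place of -4.49 and -4.43. When all spots of a probe had to be well above background, 14 probes in place of 13 were detected in developing only and 21 in place of 15 in post-spawning only, and their highest bounds were at least 27.9-fold and at least 18.3-fold, in place of 63.1-fold and 25.4-fold.

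The replicate numbers gave no pairing. Deviations from the stage mean correlated above 0.1 for 1 of 6 pairs with the titles' numbers (-0.09 to 0.16) and for 1 of 6 with the descriptions' numbers (-0.09 to 0.15), and 0 and 1 developing arrays correlated best with the array of their own number. With replicate number as a block, 5152 probes (titles) and 5178 probes (descriptions) were called.

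Between the 4 slides, with stage in the model, limma called 0 probes, and 426 had an unadjusted p under 0.05. Differences near the background are bounded by the dimmest detectable signal. With 200 probes changed, simulated 1.5-fold changes were recovered in 56.7% of cases, a rate that need not hold in the data. A probe not called is not shown to be equal.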

Other observations

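The probe names carry fields whose meaning is not given in these sources. Over all probes tested 63.1% were called, 26.7% higher and 36.5% lower in developing testis. Of the probes with the field an, 66.5% of 6219 were called (1755 higher and 2381 lower in developing testis), and with the field un 54.3% of 2402 (544 and 761). The probes with the field un were also dimmer, with a median log2 signal over all arrays of -3.56 against -1.75. Probes with the fields s and as were called at 63.8% and 61.6%, and those with sp and xh at 61% and 67.3%, where xh probes were the brighter ones (-0.85 against -2.82). Of 18 custom-added probes 17 were tested and 12 called (70.6%), 4 of them higher and 8 lower in developing testis. The parts of brightness and of the name fields in these shares were not tested.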
